A study of Mus musculus with 15 samples.

Results

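The transcripts of 9 CC chemokine genes (Ccl2, Ccl3, Ccl4, Ccl6, Ccl7, Ccl8, Ccl9, Ccl12 and Ccl24) were followed across macrophages of 6 mouse tissues. The genes were taken by symbol, are 9 of the 24084 genes in the deposited corrected count table, and all 9 had enough counts to be tested. C57BL/6J mice supplied the cells, which were sorted for F4/80 together with CD45 and sequenced from low amounts of total RNA without culture. The 6 groups were macrophages of sympathetic ganglia (SAM ganglia, 3 libraries), of sympathetic nerve fibers dissected out of inguinal fat (SAM fibers, 2), of the surrounding subcutaneous fat (sATM, 2), of visceral fat (vATM, 2), of spleen (SpM, 3) and of brain (microglia, 3). SAM stands for the ganglia and fiber macrophages together. Every library title carries the tag ND, which the labels do not explain. No treatment or genetic change is otherwise named in the labels, and neither age nor diet is spelled out. Tissue was pooled from 10 mice in all, with no statement of which animals went into which library, so the spread behind the p-values is that of the libraries and may be technical. Enzymes differed by tissue. Collagenase acted for 30 minutes on fat, spleen and brain, for 15 minutes on fibers after 30 minutes of hyaluronidase, and for 10 minutes on ganglia before 30 minutes of trypsin. In comparisons that include ganglia or fibers, tissue and digestion therefore cannot be told apart, while fat, spleen and brain shared 1 protocol.

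CC chemokines are small secreted proteins with a pair of adjacent cysteines that attract leukocytes through G protein-coupled CCR receptors. Macrophages are a main source of them, and many of the genes are switched on rapidly by inflammatory and stress signals. In fat they are known for drawing monocytes into the tissue during obesity. Ccl2, Ccl7 and Ccl12 encode monocyte attractants that act on Ccr2, and Ccl8, their close relative, acts on Ccr8 in mice. Ccl3 and Ccl4 encode attractants of monocytes and T cells, and Ccl3 acts on Ccr1 among others. Ccl6 and Ccl9 encode rodent chemokines that act on Ccr1. Ccl24 encodes an eotaxin, a ligand of Ccr3 that attracts eosinophils.

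Of the 9 genes, 8 lie in 2 clusters on chromosome 11 of the mm10 build, separated by 1456 kb. The first cluster holds Ccl2 (11:82035577-82037452), Ccl7 (11:82045712-82047523), Ccl12 (11:82101845-82103399) and Ccl8 (11:82115185-82116799), all on the forward strand. The second holds Ccl9 (11:83572917-83578636), Ccl6 (11:83587886-83593087) and Ccl3 (11:83647843-83649378) on the reverse strand and Ccl4 (11:83662584-83664683) on the forward strand. Ccl24 stands alone on chromosome 5 (5:135569937-135573043). The coding sequences are related but distinct, with the highest identity at 68.4% for Ccl3 and Ccl4, 65.0% for Ccl7 and Ccl8, 64.8% for Ccl12 and Ccl8 and 64.6% for Ccl6 and Ccl9. The longest run of coding bases shared exactly by any 2 of them is the 23 bases common to Ccl6 and Ccl9, shown because reads over it alone cannot be assigned to one gene.
Ccl6 and Ccl9, coding strand: gccgggcatcatctttatcagca
Ccl2 and Ccl6 each overlap the span of a gene on the opposite strand with which they share 0 exon bases.

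Promoters of 5 of the 9 genes are in RefSeq's table for GRCm38.p6 (Ccl12, Ccl8, Ccl3, Ccl6 and Ccl9). Ccl2, Ccl7, Ccl4 and Ccl24 were not matched. The 250 bases before the start site are shown for Ccl12 (chr11:82101595-82101844, forward strand) and Ccl8 (chr11:82114935-82115184, forward strand), neighbours whose transcripts were highest in different tissues. Capitals mark TATAAA and GAGGAA (the core of a PU.1 site), each searched on both strands.
Ccl12: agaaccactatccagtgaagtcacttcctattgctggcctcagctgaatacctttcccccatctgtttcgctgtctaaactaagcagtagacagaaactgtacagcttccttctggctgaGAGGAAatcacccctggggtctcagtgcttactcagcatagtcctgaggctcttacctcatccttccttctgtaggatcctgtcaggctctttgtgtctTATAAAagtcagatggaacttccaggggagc
Ccl8: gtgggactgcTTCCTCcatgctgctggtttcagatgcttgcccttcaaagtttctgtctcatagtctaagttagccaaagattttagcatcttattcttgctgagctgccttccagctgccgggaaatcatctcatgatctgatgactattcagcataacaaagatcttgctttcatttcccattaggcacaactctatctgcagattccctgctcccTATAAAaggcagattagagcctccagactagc
TATAAA began at -31 in Ccl12 and at -32 in Ccl8, counted back from the start site. It stood in 3 of the 5 promoters against 12.4% of 32851 promoters in the table. The third was that of Ccl9, where the matches began farther away, at -224, -94 and -92. GAGGAA stood in 3 of the 5, against 23.3% of all. A 10-base NF-kappaB consensus was in 1 of the 5 promoters (7.25% of all) and the AP-1 motif TGANTCA in 1 (6.75% of all), in both cases that of Ccl9. The STAT motif TTCNNNGAA (7.02% of all) and the C/EBP motif TTGCNNAA (9.56% of all) were in 0 of the 5. The Ccl6 promoter (chr11:83593088-83593337, reverse strand) and the Ccl9 promoter (chr11:83578637-83578886, reverse strand), whose transcripts were both highest in fat, are shown with the longest run they share, 13 bases, in capitals.
Ccl6: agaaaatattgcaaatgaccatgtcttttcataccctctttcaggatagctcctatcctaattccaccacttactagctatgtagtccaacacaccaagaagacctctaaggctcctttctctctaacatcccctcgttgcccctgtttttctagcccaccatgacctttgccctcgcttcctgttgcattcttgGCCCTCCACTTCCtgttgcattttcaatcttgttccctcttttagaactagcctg
Ccl9: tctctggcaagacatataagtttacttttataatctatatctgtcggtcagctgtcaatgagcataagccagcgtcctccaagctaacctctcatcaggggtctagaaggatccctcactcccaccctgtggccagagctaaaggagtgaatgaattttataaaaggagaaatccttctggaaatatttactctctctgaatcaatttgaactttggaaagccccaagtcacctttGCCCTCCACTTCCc
The run began at -55 in Ccl6 and at -14 in Ccl9. These matches describe the sequence only.

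Depth, the sum of a library's corrected counts, ran from 2.55 to 12.52 M (mega). Of this, 46.1% to 71.5% fell on 3 genes that collect ribosomal RNA reads. Levels are TMM-scaled and given as CPM, counts per M. A library's floor of 3 counts came to between 0.249 and 0.897 CPM, which covers counting error only. A value listed at 0 may be a failed estimate of the authors' correction. The group labels matched defining transcripts: P2ry12 averaged 3932 CPM in microglia and 206 or less elsewhere, Spic averaged 664 CPM in spleen and 29.5 or less elsewhere, and Retnla averaged 7874 CPM in vATM, 2720 in sATM and 98.4 or less elsewhere. The 2 fiber libraries were the least alike of any pair within a group (Pearson r 0.637 across genes, against 0.816 to 0.967). DNA background, as raw counts over olfactory receptor genes, ran from 32.9 to 1233 per M raw counts and was highest in SAM fibers 1.

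A test for any difference among the 6 groups passed for 9 of 9 chemokine transcripts at an adjusted p below 0.05, against 22.2% of the 15289 genes tested. The adjusted p ran from 5.25e-09 for Ccl3 to 1.57e-05 for Ccl24 (edgeR, quasi-likelihood, Benjamini-Hochberg over all tested genes). In bulk RNA, fewer cells of a type and less RNA per cell cannot be told apart. The 9 transcripts showed 3 arrangements. Ccl3, Ccl4, Ccl2, Ccl7 and Ccl12 had their highest mean in SAM fibers, Ccl6, Ccl9 and Ccl8 in fat, and Ccl24 in vATM with a clear level in spleen.

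**Figure D1:**
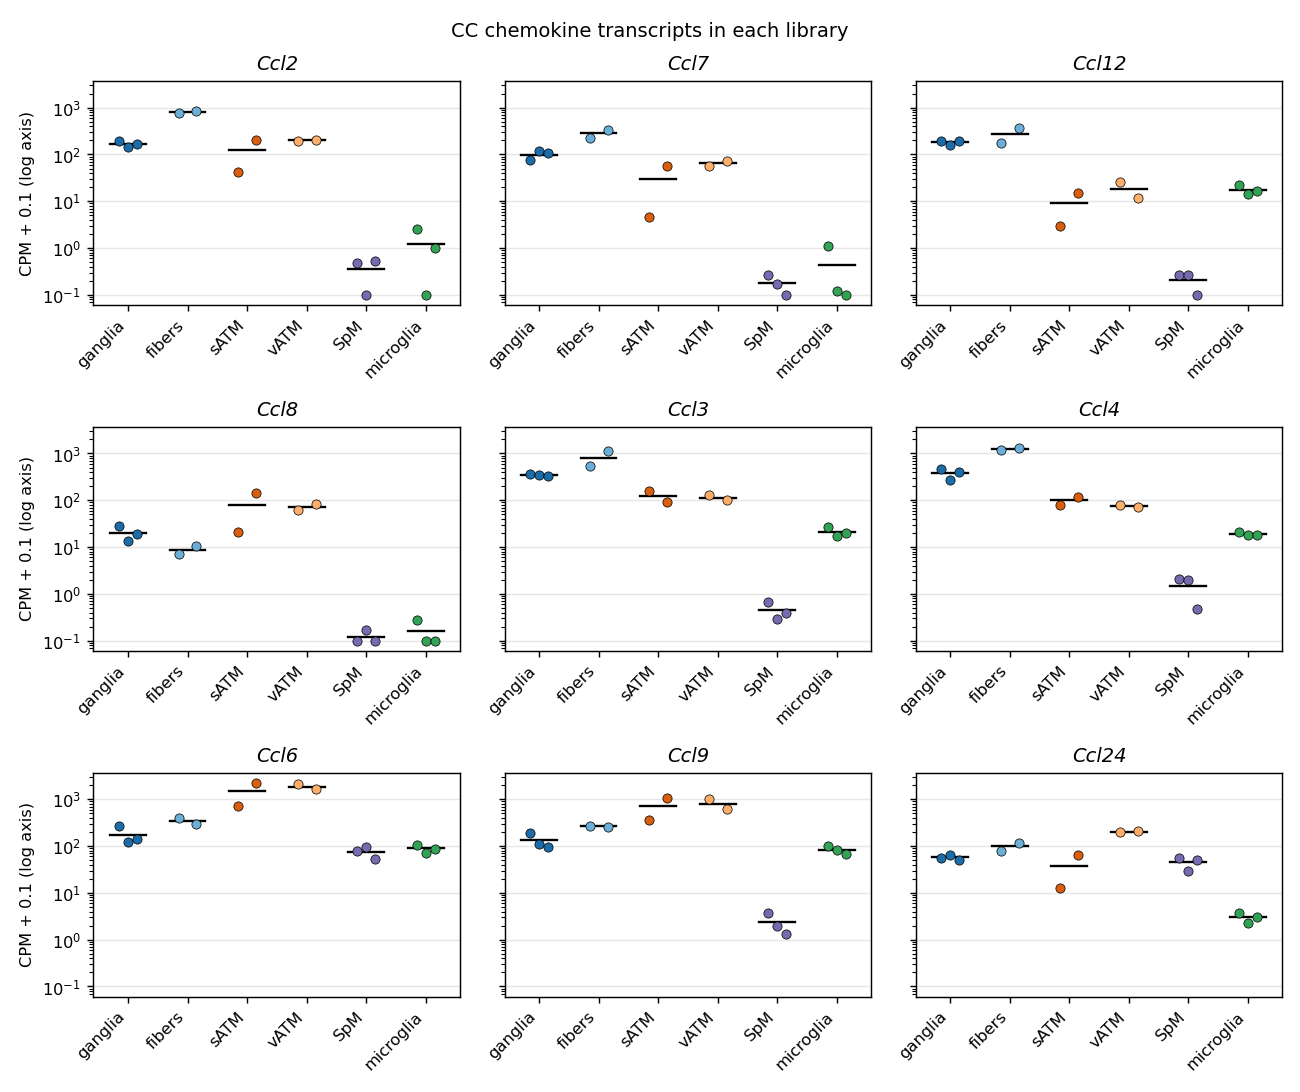
Level of each CC chemokine transcript in every library, as CPM + 0.1 on a log axis, by tissue group. Points are libraries and bars are group means. Ccl3 and Ccl4 lie at 270 to 1309 CPM in the 5 SAM libraries, above every other library, and 4 of the transcripts (Ccl2, Ccl7, Ccl8 and Ccl12) lie at 0.419 CPM or less in all spleen libraries.

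Ccl3 and Ccl4 were at higher levels in every SAM library than in any other library. Ccl3 was at 358, 353 and 335 CPM in ganglia and at 536 and 1104 in fibers. In fat it was at 154 and 90.5 CPM (sATM) and at 127 and 99.1 (vATM). In microglia it was at 26.8, 16.9 and 19.5 CPM, and in spleen at 0.582, 0.195 and 0.288. The 5 SAM libraries lay above all others, fat came next, and spleen was near the floor. Ccl4 was at 464, 270 and 399 CPM in ganglia and at 1183 and 1309 in fibers. It was at 80.6 and 119 CPM in sATM, 78.7 and 73.1 in vATM, 20.9, 17.8 and 18.4 in microglia, and 1.93, 1.91 and 0.373 in spleen. The order was the same as for Ccl3, and again no SAM library overlapped another group. Down this order, Ccl4 differed between neighbours at each step (adjusted p 0.0165 or less) except sATM and vATM. For Ccl3 the step from fibers to ganglia (adjusted p = 0.0532) and that from sATM to vATM did not pass.

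Ccl2 and Ccl7, monocyte attractants that sit side by side on the chromosome, were highest in fibers and at most 2.51 CPM in any spleen or microglia library. Ccl2 was at 778 and 863 CPM in fibers. It was at 194, 145 and 165 CPM in ganglia, 41.1 and 202 in sATM, and 197 and 203 in vATM. In microglia it was at 2.51, 0 and 0.915 CPM, and in spleen at 0.374, 0 and 0.419. The fiber libraries stood apart above all others, while vATM lay just above ganglia and the sATM libraries lay on both sides of them. In the order of means, fibers and vATM did not differ by the test (log2 fold change 2.04 ± 0.69, adjusted p = 0.104), nor did vATM and ganglia or ganglia and sATM, whereas sATM and microglia did (6.44 ± 0.75, adjusted p = 1.96e-05). Ccl7 was at 222 and 341 CPM in fibers, 74.5, 119 and 105 in ganglia, 57.5 and 70.9 in vATM, and 4.58 and 56.4 in sATM. In microglia it was at 0.989, 0.0216 and 0 CPM, and in spleen at 0.166, 0.0707 and 0. All 5 SAM libraries exceeded all 10 others, although the nearest ganglia library and the nearest vATM library were close. Each step of the Ccl7 order missed the threshold apart from that between sATM and microglia (adjusted p = 2.83e-04). In the raw table, which counts over whole gene bodies and keeps DNA reads, the libraries listed at 0 for Ccl2 held 22 counts (microglia 2) and 20 counts (SpM 2).

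Ccl12, another Ccr2 ligand, lay far higher in SAM than in fat. It was at 195, 156 and 195 CPM in ganglia and 172 and 370 in fibers. In fat it was at 2.92 and 15.2 CPM (sATM) and 25.2 and 11.6 (vATM). In microglia it was at 22.2, 13.9 and 16.4 CPM, and in spleen at 0.166, 0.162 and 0. Fibers and ganglia overlapped, and all 5 SAM libraries lay above the rest. Fat and microglia overlapped as well. Neighbouring groups differed by the test at the step from ganglia to vATM (log2 fold change 3.30 ± 0.59, adjusted p = 0.00647) and from sATM to spleen (6.24 ± 0.79, adjusted p = 6.56e-05). The latter rests on 3 counts in spleen, and the ratio of pooled counts was 105 (exact 95% interval 35.4 to 517, counting error only).

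Ccl8, the last gene of that cluster, had the reverse order between fat and nerve. It was at 21.3 and 140 CPM in sATM, 62.3 and 82.1 in vATM, 27.5, 13.5 and 18.8 in ganglia, and 6.86 and 10.2 in fibers. In microglia it was at 0.173, 0 and 0 CPM, and in spleen at 0, 0.0682 and 0. Fibers lay below every fat and ganglia library, and brain and spleen were below the floor, with 2 counts over the 3 microglia libraries and 1 count over the 3 spleen libraries. No step between neighbouring groups passed the test other than that from fibers to microglia (adjusted p = 2.62e-04). For that step the ratio of pooled corrected counts was 95.9 (exact 95% interval 25.6 to 807). The interval covers counting error in the corrected counts only. In the raw table the microglia libraries held 2, 14 and 14 Ccl8 counts. Per M raw counts, Ccl8 was at 2.71 and 5.43 in fibers and at 0.102, 1.23 and 0.988 in microglia, so the raw gap was far smaller.

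Ccl6 and Ccl9, the Ccr1 ligands, had their highest levels in fat macrophages. Ccl6 was at 736 and 2248 CPM in sATM and 2078 and 1620 in vATM. Ganglia held 268, 121 and 140 CPM and fibers 402 and 301, while it was at 108, 72.6 and 87.4 CPM in microglia and at 77.8, 95.4 and 53.7 in spleen. Every fat library exceeded every other library, and Ccl6, like Ccl24, was well above the floor in every spleen library. Ccl9 was at 364 and 1041 CPM in sATM, 990 and 617 in vATM, 266 and 260 in fibers, and 193, 111 and 94.3 in ganglia. It was at 97.9, 83.1 and 68.1 CPM in microglia but at 3.66, 1.90 and 1.23 in spleen. Spleen thus parted the pair, with Ccl6 and without much Ccl9. For Ccl6 the step from sATM to fibers passed (log2 fold change 2.09 ± 0.49, adjusted p = 0.0253), and for Ccl9 that from microglia to spleen (5.15 ± 0.50, adjusted p = 2.29e-06), while the other steps of both did not.

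Ccl24, the eotaxin gene, had an order of its own. It was at 195 and 209 CPM in vATM, 80.2 and 119 in fibers, 56.5, 65.3 and 50.96 in ganglia, and 12.3 and 64.2 in sATM. It was at 55.9, 29.9 and 49.6 CPM in spleen and at 3.57, 2.16 and 2.99 in microglia. Both vATM libraries exceeded all others and all microglia libraries were below all others. By the test, sATM and microglia were the neighbours that differed (log2 fold change 3.67 ± 0.52, adjusted p = 1.45e-04).

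On the per-length scale the groups also differed in which chemokine made up the sum. RPKM values, which divide by gene length, added up over the 9 genes to 1859 ± 501 in ganglia and 5184 ± 2092 in fibers (SD, n = 3 and 2), to 1961 ± 1438 and 1910.4 ± 161 in sATM and vATM (n = 2 each), and to 101 ± 12.9 and 215 ± 7.14 in spleen and microglia (n = 3 each). Ccl3 and Ccl4 together made up 52.3% ± 1.05 of this sum in ganglia and 55.9% ± 0.968 in fibers. Their share was 20.1% ± 13.9 in sATM, 10.5% ± 0.073 in vATM, 30.6% ± 0.966 in microglia and 2.70% ± 1.31 in spleen. Ccl6 and Ccl9 had 8.401% ± 2.56 in ganglia and 6.57% ± 2.30 in fibers, against 62.9% ± 4.84 in sATM, 62.5% ± 4.83 in vATM, 57.9% ± 11.99 in spleen and 49.3% ± 1.16 in microglia. The first-cluster genes (Ccl2, Ccl7, Ccl12 and Ccl8) had 37.0% ± 2.46 in ganglia and 36.1% ± 1.22 in fibers, between 15.8% and 20.7% on average in fat and microglia, and 0.728% ± 0.203 in spleen. In microglia nearly all of that share was Ccl12. Ccl24 had 38.7% ± 12.7 in spleen and at most 7.17% in any library elsewhere.

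**Figure D2:**
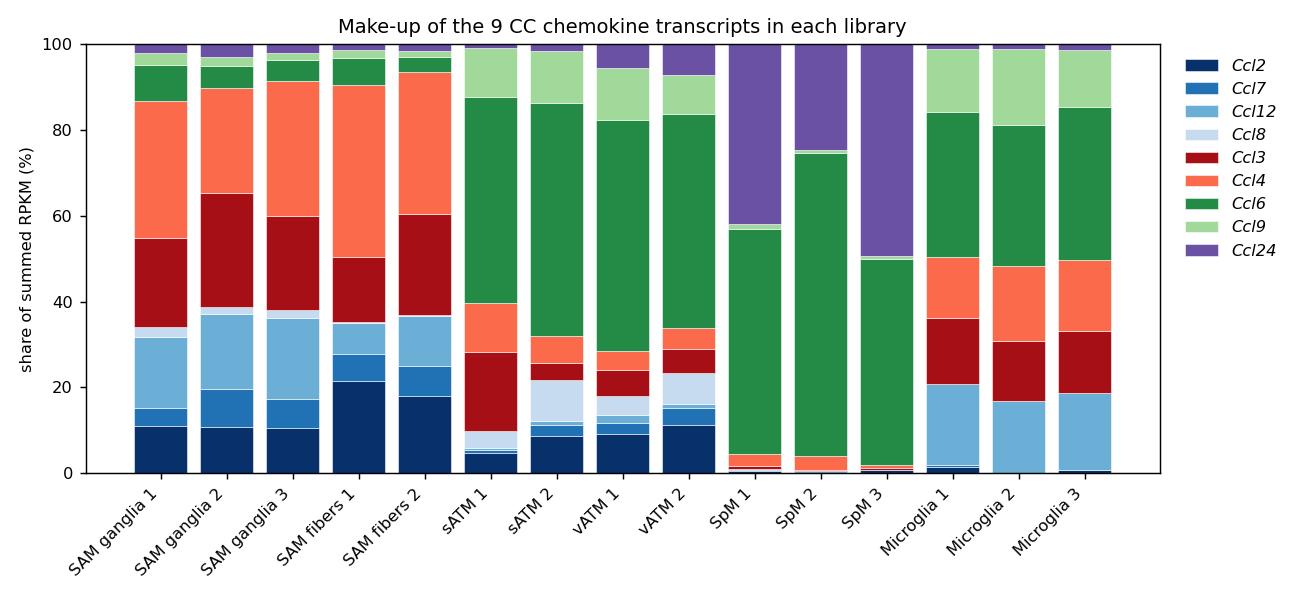
Share of the summed RPKM of the 9 CC chemokine genes taken by each gene, in percent, with 1 bar per library. Ccl3 and Ccl4 (reds) hold 51.1% to 56.6% of each SAM bar, Ccl6 and Ccl9 (greens) hold 48.4% to 71.4% of each fat, spleen and microglia bar, and Ccl24 (purple) holds 24.7% to 49.5% of the spleen bars.

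The comparison of SAM with the other macrophages asks which transcripts mark macrophages beside sympathetic neurons, and 7 of the 9 chemokines were higher in SAM and 0 lower. Of all tested genes, 5.71% were called higher and 3.44% lower (adjusted p below 0.05 and a log2 fold change of at least 1). The median log2 fold change was 4.85 over the 9 members and 0.02 over all tested genes. The largest called changes were those of Ccl7 (log2 fold change 5.67 ± 0.50, adjusted p = 1.85e-06), Ccl12 (5.65 ± 0.36, 4.70e-08), Ccl2 (5.20 ± 0.41, 6.26e-07), Ccl4 (5.003 ± 0.24, 3.07e-09) and Ccl3 (4.85 ± 0.23, 2.01e-09). Those of Ccl7, Ccl12 and Ccl8 rest in part on 3 or fewer counts in spleen, so their size depends on the fit's prior count and is no bound. Ccl8 (2.44 ± 0.49, adjusted p = 0.00387) was called higher although its mean was 14.2 CPM in SAM and 38.2 CPM over the other groups, because the fit weights the 4 other groups equally on the log scale. It was not called by limma-voom (2.20, adjusted p = 0.135), with log2(RPKM + 1) (1.21, adjusted p = 0.0537) or in raw gene-body counts (0.52, adjusted p = 0.725). Ccl24 was called at 1.24 ± 0.29 (adjusted p = 0.0107). Without sATM 1 its fold change was 0.95 and without vATM 1 its adjusted p was 0.0651. Ccl9 (0.87 ± 0.27, adjusted p = 0.0503) passed without sATM 2 (adjusted p = 0.0127) or without SpM 1 (adjusted p = 0.0234). In raw gene-body counts 4 of the 9 were called higher (Ccl7, Ccl12, Ccl4 and Ccl2), among 15 of all genes. Ccl6 was not called (log2 fold change -0.57 ± 0.27, adjusted p = 0.178). Beside the count of 0 lower, 0 members were lower at an unadjusted p below 0.05 by edgeR, and DESeq2 and limma-voom called 0.

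Which chemokines were called differed with the reference, as separate contrasts of the same fit showed. These were added after the first results were seen. Against the fat macrophages alone, 4 of the 9 were higher in SAM (2.98% of all tested genes). These were Ccl12 (log2 fold change 4.07 ± 0.44), Ccl4 (2.98 ± 0.31), Ccl3 (2.19 ± 0.27) and Ccl7 (1.91 ± 0.54), with adjusted p of 0.0445 or less. In the same contrast 3 of the 9 were lower in SAM (3.49% of all genes), namely Ccl6 (-2.74 ± 0.34), Ccl8 (-2.55 ± 0.47) and Ccl9 (-2.01 ± 0.34), with adjusted p of 0.00357 or less. Ccl2 (1.25 ± 0.46, adjusted p = 0.119) and Ccl24 (-0.22 ± 0.35, adjusted p = 0.701) did not pass. Against spleen and microglia alone, 9 of 9 were higher in SAM (7.81% of all genes) and 0 lower (7.02%), from 1.60 ± 0.29 for Ccl6 to 9.43 ± 0.72 for Ccl7.

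**Figure D3:**
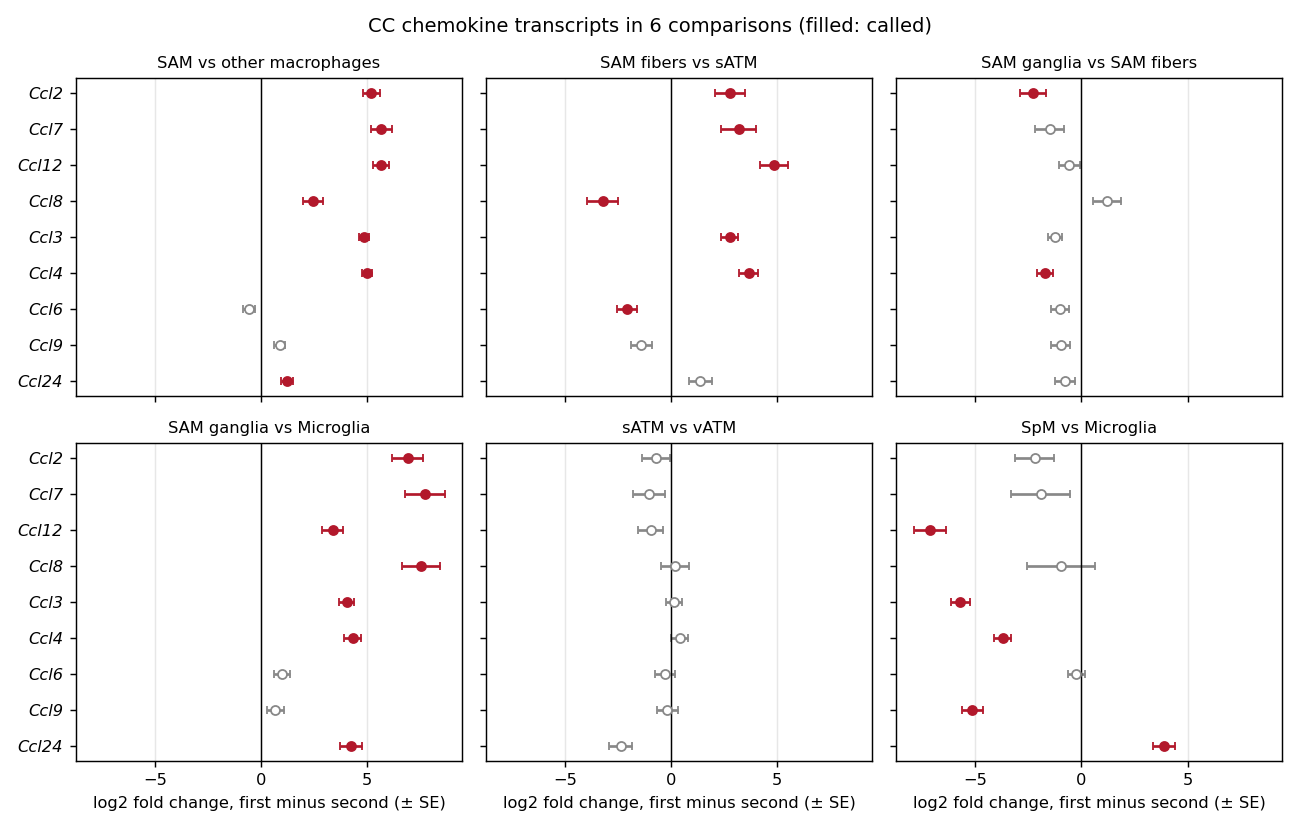
Log2 fold change (first group minus second) of each CC chemokine transcript in 6 comparisons, with bars of 1 SE. Filled red points are called, open grey points are not. Ccl6, Ccl8 and Ccl9 lie left of 0 between fibers and sATM, where Ccl2, Ccl7, Ccl12, Ccl3 and Ccl4 lie to the right.

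Fibers and sATM come from the same fat depot, and their chemokines split in both directions. Higher in fibers were 5 of the 9 (1.85% of all tested genes), and lower were 2 (2.99%). Ccl12 was higher by 4.84 ± 0.66 on the log2 scale (adjusted p = 0.00118), Ccl4 by 3.64 ± 0.46 (9.49e-04), Ccl7 by 3.18 ± 0.83 (0.0399), Ccl2 by 2.75 ± 0.71 (0.0382) and Ccl3 by 2.75 ± 0.40 (0.00161). Lower in fibers were Ccl8 (-3.23 ± 0.72, adjusted p = 0.0196) and Ccl6 (-2.09 ± 0.49, 0.0253). The fiber and sATM libraries did not overlap for any of the 9. With 2 libraries on each side this is a weak criterion, and its share over all genes was not computed. The member median was 2.75, against 0 over all genes. The calls of Ccl12, Ccl4 and Ccl3 held whichever single library was left out. The Ccl2 call was lost without any 1 of 8 libraries (ganglia 2 or 3, fibers 1, sATM 1, vATM 1 or 2, SpM 3, microglia 3), with adjusted p between 0.0506 and 0.280. The Ccl7 call was likewise lost without any 1 of 8 (ganglia 2 or 3, sATM 1, vATM 1 or 2, SpM 1, 2 or 3), with adjusted p between 0.0515 and 0.200. Both lower calls went without fibers 1 or without sATM 2 (without the latter, Ccl8 -1.39 and Ccl6 -1.17, adjusted p 0.369 and 0.254). Ccl9 became lower without sATM 1 (-2.25, adjusted p = 0.0199), and Ccl24 higher without sATM 2 (2.96, adjusted p = 0.0161). A fit on these 4 libraries alone called none of the 9 in either direction, and it also called 0 of all genes. In raw gene-body counts none of the 9 was called, nor was any other gene. Neither Ccl8 nor Ccl6 was called by limma-voom, which called 5 of all genes lower. With log2(RPKM + 0.1) Ccl12, Ccl4 and Ccl3 only were called, beside 210 of all genes higher and 256 lower.

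Between the nerve sites, 8 of the 9 fold changes were below 0 in ganglia against fibers, and 2 of the 9 transcripts were called lower (1.27% of all tested genes) and 0 higher (2.85%). Ccl2 had a log2 fold change of -2.29 ± 0.60 (adjusted p = 0.0446), and Ccl4 had a log2 fold change of -1.72 ± 0.37 (adjusted p = 0.0164). Ccl3 (-1.24 ± 0.34, adjusted p = 0.0532) passed without fibers 1 (-1.66, adjusted p = 0.0184). The Ccl4 call was lost without ganglia 2 (adjusted p = 0.0740). The Ccl2 call was lost without any 1 of 9 libraries (ganglia 1, 2 or 3, fibers 1, vATM 1 or 2, SpM 1 or 3, microglia 3), with adjusted p between 0.0594 and 0.144. In the raw gene-body counts, which keep DNA reads, 8 of the 9 had the opposite sign (0.18 for Ccl2 and 0.71 for Ccl4). None of the 9 was called there, nor was any other gene. With log2(RPKM + 0.1) neither was called (adjusted p 0.228 for Ccl2 and 0.0892 for Ccl4). Ccl8 was the transcript with the higher value in ganglia (1.21 ± 0.65, adjusted p = 0.316). The member median was -0.996, against 0.003 over all genes. Beside the count of 0 higher, 0 members were higher at an unadjusted p below 0.05 by edgeR, and DESeq2 and limma-voom called 0.

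Ganglia macrophages and microglia both live beside neurons, and 7 of the 9 chemokines were higher in ganglia (4.91% of all tested genes) and 0 lower (2.03%). Ccl7 (log2 fold change 7.72 ± 0.93, adjusted p = 4.88e-05) and Ccl2 (6.90 ± 0.74, 1.70e-05) were at most 2.51 and 0.989 CPM in microglia, for Ccl2 and Ccl7 in turn. For Ccl8, with 315 corrected counts in ganglia and 2 in microglia, the ratio of pooled counts was 203 (exact 95% interval 55.7 to 1683). This covers counting error in the corrected counts only. Per M raw counts, Ccl8 was at 18.8, 13.5 and 11.2 in ganglia and at 0.102, 1.23 and 0.988 in microglia, a smaller gap. Ccl4 (4.31 ± 0.39, adjusted p = 3.16e-06), Ccl24 (4.24 ± 0.51, 4.84e-05), Ccl3 (4.04 ± 0.35, 2.24e-06) and Ccl12 (3.37 ± 0.50, 3.75e-04) were higher over a clear or low level in microglia. Ccl6 (0.98 ± 0.39, adjusted p = 0.190) and Ccl9 (0.68 ± 0.40, adjusted p = 0.464) were not called. The member median was 4.24, against -0.13 over all genes. In raw gene-body counts 3 of the 9 were called higher (Ccl2, Ccl7 and Ccl8), among 58 of all genes. Beside the count of 0 lower, 0 members were lower at an unadjusted p below 0.05 by edgeR, and DESeq2 and limma-voom called 0.

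Subcutaneous and visceral fat macrophages gave 0 called members in either direction, in a comparison that called 0.0196% of all tested genes higher and 0.0196% lower. By edgeR without adjustment, 0 members were higher and 1 lower in sATM at a p below 0.05. That transcript was Ccl24 (edgeR log2 fold change -2.39 ± 0.55, adjusted p = 0.167). DESeq2 (33 of all genes lower) and limma-voom (14 of all genes lower) each called Ccl24 lower and no member higher. Without sATM 2 edgeR called it too (-4.09, adjusted p = 0.00439). The sATM libraries differed strongly from each other. Of the 9 members, 8 were higher in sATM 2, by 12.3 times for Ccl7, 6.57 for Ccl8, 5.22 for Ccl12, 5.21 for Ccl24, 4.91 for Ccl2, 3.05 for Ccl6, 2.86 for Ccl9 and 1.47 for Ccl4, while Ccl3 stood at 0.587 times its level in sATM 1. The median of all tested genes was higher by 0.16 on the log2 scale in sATM 2. Between sATM 1 and sATM 2, summed monocyte markers went from 1967 to 2847 CPM and summed eosinophil markers from 131 to 345 CPM. Ptprc, which encodes CD45, went from 417 to 951 CPM. The monocyte genes went both ways. Fn1 rose from 855 to 2614 CPM, while Ly6c2 fell from 281 to 59.3, Plac8 from 296 to 50.6 and Chil3 from 255 to 34.9. Most of the eosinophil sum was Ear2, at 117 and then 338 CPM. Siglecf and Prg2 were at most 2.33 and 0.0992 CPM in sATM, and Epx was listed at 0. The part of these markers in the chemokine difference was not tested.

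**Figure D4:**
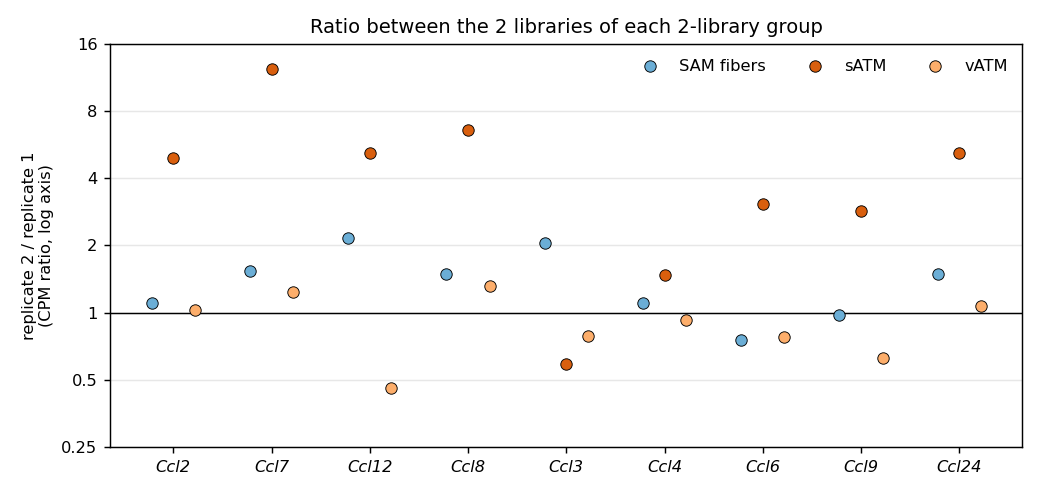
Ratio of the level in replicate 2 to that in replicate 1 for each CC chemokine transcript in the 3 groups with 2 libraries, on a log axis. Points at 1 are equal. In sATM 8 of 9 ratios lie above 1 and reach 12.3, while in SAM fibers they run from 0.750 to 2.15 and in vATM from 0.460 to 1.32.

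Set against each fat depot singly, the ganglia had 3 members higher and 2 lower each time. Against sATM (1.65% of all tested genes higher, 1.03% lower) Ccl12 was higher by 4.27 ± 0.63 on the log2 scale (adjusted p = 0.00133), Ccl4 by 1.92 ± 0.41 (0.0165) and Ccl3 by 1.51 ± 0.36 (0.0349), while Ccl6 (-3.08, adjusted p = 0.00109) and Ccl9 (-2.41, 0.00757) were lower. Against vATM (1.12% higher, 0.733% lower) the values were 3.30 ± 0.59 for Ccl12, 2.31 ± 0.41 for Ccl4, 1.63 ± 0.37 for Ccl3, -3.39 for Ccl6 and -2.60 for Ccl9, with adjusted p of 0.0292 or less. These 2 contrasts share the ganglia libraries. Fibers against vATM (1.96% higher, 3.19% lower) had Ccl4 (4.04 ± 0.47), Ccl12 (3.88 ± 0.63) and Ccl3 (2.86 ± 0.41) higher and Ccl8 (-3.07) and Ccl6 (-2.39) lower, 3 and 2 members, with adjusted p of 0.0220 or less. Ccl2 was not called in any of these 3 contrasts (0.46 and -0.25 for ganglia, 2.04 for fibers).

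Against spleen and microglia singly, no member was lower in SAM or fat. Higher than in spleen were 7 members in ganglia (5.96% of all genes higher, 3.6% lower), 8 in fibers (7.61% and 9.17%), 8 in sATM (5.2% and 3.56%) and 9 in vATM (5.41% and 3.29%). The member missing in fibers and sATM was Ccl24, and those missing in ganglia were Ccl24 and Ccl6 (1.22, adjusted p = 0.0648). Higher than in microglia were 9 members in fibers (7.1% and 9.29%), 8 in sATM (7.06% and 4.66%) and 8 in vATM (6.82% and 3.93%), where the missing member was Ccl12 (-0.90 and 0.07). Fat and brain macrophages thus held Ccl12 at levels that the test did not separate, while Ccl6 was higher in fat by 4.06 ± 0.45 and 4.37 ± 0.46 on the log2 scale. Beside the counts of 0 lower, edgeR found 0 members lower in these 7 contrasts at an unadjusted p below 0.05.

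Spleen macrophages and microglia, the groups with the lowest chemokine sums, differed in which genes were left. Higher in spleen was 1 member (5.8% of all tested genes), and 4 were lower (5.31%). Ccl24 was higher by 3.89 ± 0.50 on the log2 scale (adjusted p = 4.57e-05). Ccl3 (-5.71 ± 0.44, adjusted p = 2.45e-07), Ccl9 (-5.15 ± 0.50, 2.29e-06) and Ccl4 (-3.71 ± 0.41, 9.91e-06) were lower. Ccl12 was lower too, with 3 counts in spleen and 414 in microglia, and microglia stood at 176 times spleen by pooled counts (exact 95% interval 59.9 to 859). Ccl6 did not differ by the test (-0.24 ± 0.39, adjusted p = 0.834). Ccl2 (-2.20 ± 0.91, adjusted p = 0.163), Ccl7 and Ccl8 did not pass, at 2.51 CPM or less in every library of both groups. In raw gene-body counts the calls were Ccl12 and Ccl3, both lower. The member median was -2.20, against -0.21 over all genes.

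Of 14 listed CC chemokine receptors 9 were tested, with 3 higher and 0 lower in SAM against the rest (5.71% and 3.44% of all tested genes). Ccrl2, an atypical receptor, was higher by 3.23 ± 0.36 on the log2 scale (adjusted p = 2.01e-05), Ccr1 by 2.18 ± 0.28 (8.52e-05) and Ccr2 by 2.15 ± 0.42 (0.00332). Ccr2, the receptor of Ccl2, Ccl7 and Ccl12, was at 1029 ± 2.72 CPM in sATM, 824 ± 193 in vATM, 601 ± 189 in ganglia, 267 ± 97.2 in fibers, 18.6 ± 19.6 in microglia and 3.95 ± 3.797 in spleen. Fibers, the group with the most Ccl2, therefore had less Ccr2 transcript on average than ganglia or fat. By the test neither fibers against sATM (log2 fold change -1.95 ± 0.80, adjusted p = 0.180) nor ganglia against fibers (1.17 ± 0.73, adjusted p = 0.382) passed for Ccr2. Ccr3, the receptor of Ccl24, was at 653 to 912 CPM in the spleen libraries and at most 7.47 CPM in any other library. Spleen and microglia differed for Ccr3 by 7.67 ± 0.70 (adjusted p = 1.25e-06). Eosinophils also carry Ccr3. In spleen their genes Siglecf, Epx and Prg2 were at most 3.17, 1.32 and 0.317 CPM, while Ear2, on the same list, was at 62.8 to 103. Their list of 8 genes summed to 70.3 to 109 CPM there. Their part in the Ccr3 level was not tested.

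**Figure D5:**
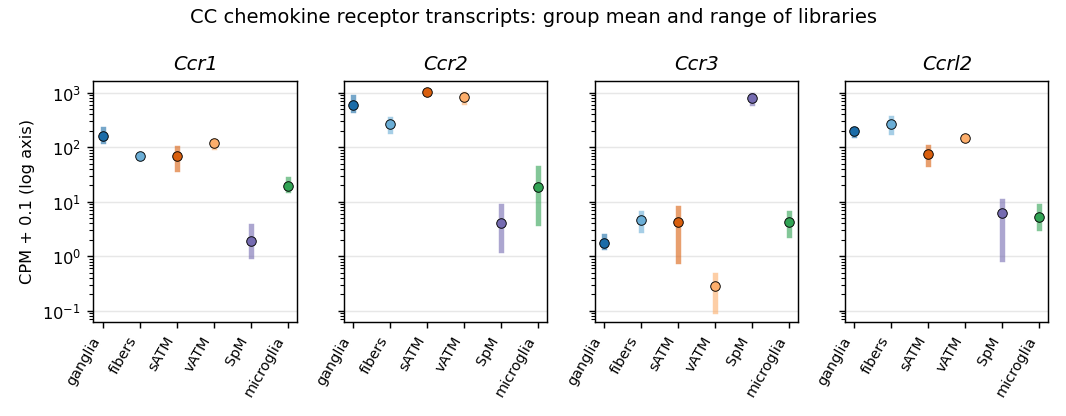
Level of 4 CC chemokine receptor transcripts by tissue group, as CPM + 0.1 on a log axis. Points are group means and lines run from the lowest to the highest library. Ccr2 is highest in fat and Ccr3 in spleen, where its mean is 803 CPM.

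The other CC chemokines were mostly too low to test. Of 15 listed, 14 were in the corrected table and 6 had enough counts to test. Higher in SAM were 2 of these 6 (5.71% of all tested genes), Ccl5 (log2 fold change 2.58 ± 0.59, adjusted p = 0.00949) and Ccl17 (4.61 ± 0.84, adjusted p = 0.00297). Of the 6, 0 were lower (3.44%). Ccl17, which encodes a Ccr4 ligand, was at 19.3 to 29.3 CPM in ganglia, 7.69 to 12.3 in vATM, and 0 to 7.45 in fibers, and it was listed at 0 in every spleen library. Summed over the 14 genes, their level was 50.8 ± 21.99 CPM in ganglia and 42.6 ± 33.8 in fibers, 13.8 ± 7.12 in sATM, 29.0 ± 12.4 in vATM, 7.62 ± 1.64 in spleen and 3.35 ± 1.83 in microglia.

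Immediate-early and heat-shock genes, which cells switch on within minutes of stress or stimulation, moved in the same comparisons. Of 18 listed, 18 were higher in SAM against the rest (5.71% of all tested genes), with a median log2 fold change of 3.69. Higher in fibers than in sATM were 12 (1.85%). Atf3 (4.55 ± 0.18), Fosb (6.28 ± 0.28), Egr1 (5.38 ± 0.24) and Hspa1a (4.82 ± 0.22) had the smallest p in SAM, each with an adjusted p of 1.67e-09 or less. Summed over the list, ganglia held 14577 ± 1696 CPM and fibers 33252 ± 7103, sATM 9457 ± 1768 and vATM 8264 ± 1242, spleen 265 ± 47.2 and microglia 416 ± 15.4. The order of these means was that of Ccl3 and Ccl4, and its part in the chemokine levels was not tested. Of 19 genes of the NF-kappaB pathway, which drives many chemokine genes, 7 were higher in SAM (5.71% of all tested genes) and 0 lower (3.44%). They included the feedback genes Nfkbiz (3.42 ± 0.25, adjusted p = 2.34e-07), Tnfaip3 (2.91 ± 0.27, adjusted p = 2.96e-06) and Nfkbia (2.14 ± 0.22, adjusted p = 9.78e-06). Ganglia had 8 of the 19 lower than fibers (1.27% of all tested genes) and 1 higher (2.85%). The fiber libraries differed widely for some of these genes, with Rel, picked after its values were seen, ranging from 18.9 to 207 CPM.

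Markers of other cells also moved with SAM. Of 7 tested fibroblast markers 5 were higher in SAM, of 8 Schwann and satellite glia markers 7, and of 6 sympathetic neuron markers 6. For these and the later counts of markers, 5.71% of all tested genes were called higher in SAM. Fibroblasts are another known source of Ccl2 and Ccl7. Their list of 8 genes summed per library to 172 to 252 CPM for fibers, 42.8 to 53.5 for ganglia, 32.9 to 43.0 for sATM, 31.5 to 37.5 for vATM, 6.04 to 10.6 for microglia and 0.295 to 3.19 for spleen. Pdgfra, which defines many fibroblasts, was listed at 0 in both fiber libraries, while Col1a1 was at 34.1 to 43.9 CPM there. Glial markers summed to 520 to 627 CPM for fibers, 198 to 227 for ganglia, 54.2 to 105 for sATM, 173 to 198 for vATM, 321 to 361 for microglia and 3.68 to 11.5 for spleen. Neuronal markers summed to 232 to 614 CPM for fibers, 86.7 to 116 for ganglia and at most 48.2 in any other library. Of 10 monocyte markers 3 were higher in SAM (Ly6c2, Plac8 and Hp), and the list summed to 504 to 841 CPM for fibers, 93.7 to 136 for ganglia, 1967 to 2847 for sATM, 2432 to 2724 for vATM and at most 47.1 elsewhere. Within that list Ly6c2 was at 119 and 289 CPM in fibers and 59.3 and 281 in sATM, but at 2.40 and 2.87 in vATM. Of 5 tested neutrophil markers 3 were higher in SAM, and that list summed to 127 to 136 CPM for fibers, 19.1 to 95.3 for ganglia, 101 to 123 for microglia and at most 57.9 elsewhere. The T cell and NK cell genes Cd3e and Ncr1, whose cells also make Ccl3 and Ccl4, were at most 3.05 and 2.11 CPM in any library. Their list of 9 genes summed to 45.1 to 56.1 CPM for vATM, 26.2 to 44.5 for sATM and 7.34 to 30.4 for fibers. It summed to 1.93 to 7.06 CPM for ganglia and at most 11.3 elsewhere. The part of these cells in the chemokine levels was not tested beyond these values.

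Across the 15 libraries, each chemokine's profile was set beside those of 6160 other genes by Pearson r of log2(CPM + 0.5), a description with no test, since the libraries share groups and depth. Nearest to Ccl2 were Dusp1 (r 0.977), Fosb and Junb, which stand on the immediate-early list. Nearest to Ccl3 were Jun (r 0.985), on the same list, Ier5 and C5ar1, and nearest to Ccl4 were Ier5 (r 0.986), Socs3 and Btg2, of which the last is on it. Nearest to Ccl7 were Tnf (r 0.972), Phlda1 and Egr1. Nearest to Ccl12 were Cxcl16 (r 0.979), which encodes a chemokine of another class, Tagap and Nt5dc2. The fat-high transcripts had other neighbours, with Olfm1 (r 0.974), Qpct and Irf4 for Ccl8, Aldh1a2 (r 0.966), Lyz1 and Ednrb for Ccl6, and Tiam1 (r 0.979), Alox5ap and Fam20c for Ccl9. Ccl24 was nearest to Anxa5 (r 0.927), Cd163 and Cd74. Among the members themselves, Ccl2 and Ccl7 (r 0.981) and Ccl3 and Ccl4 (r 0.978) were the closest pairs, and both are neighbours on the chromosome. Ccl12 and Ccl8, also neighbours, had r 0.498, below Ccl12 and Ccl4 (r 0.927), which lie in different clusters.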

How the data were processed

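RNA was measured in 15 libraries, and each library's group and replicate number come from its title. The submitters' processing notes name STAR, HOMER and mm10. Settings, the method of DNA removal and strand use were not given in the sources used here. The table tested holds estimated counts from which the authors removed DNA contamination. The others, as the authors deposited them, hold raw counts over gene bodies and RPKM values.

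The corrected counts were rounded and tested with edgeR 4.0.16 (R 4.3.3): filterByExpr with a minimum count of 10 (15289 of 24084 genes), TMM scaling, 1 mean per group over all 15 libraries, quasi-likelihood F-tests and Benjamini-Hochberg adjustment over all tested genes. Called means adjusted p below 0.05 with log2 fold change at or beyond 1 either way, and such p-values without another name are edgeR's. Fold changes are log2 values ± SE, and levels are mean CPM ± SD. In SAM against the others, groups were weighted equally on the log scale. Alternatives were DESeq2 1.42.0 and voom with quality weights (limma 3.58.1), RLE scaling, no filter, raw gene-body counts, log2(RPKM + 0.1) and log2(RPKM + 1) with limma, leaving out 3 ribosomal-read genes, fits on the compared groups only, a replicate block and leaving out each library. The script was tested on simulated data. A receptor on the list is not reported here, and list counts leave it out. The members and lists were chosen with earlier results of these data known. Text names the 9 members, up to 4 called genes per list and comparison by smallest p, and 3 nearest genes per member with a mean of at least 10 CPM. Other genes named as markers were picked as well-known ones, after values were seen. Promoter sequences are RefSeq's, and coding sequences were compared in GENCODE's annotation of the same build.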

Additional observations from a re-analysis of the deposited data

How the results depend on the processing

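Of the fold changes of single members under the alternatives, 1240 kept their direction and side of the threshold, 71 lost a call, 22 gained one and 32 changed sign. Raw gene-body counts, which keep DNA reads, moved most. With them SAM against the others had 4 members higher, fibers against sATM 0 higher and 0 lower, ganglia against fibers 0 lower, ganglia against microglia 3 higher, and spleen against microglia 0 higher and 2 lower. Calls fell over all genes too, to 15 higher and 2 lower in SAM against the others and 58 higher in ganglia against microglia. Fibers against sATM and ganglia against fibers had 0 genes called either way. In that table ganglia exceeded fibers for Ccl12 (1.63), Ccl24 (1.59), Ccl6 (1.49), Ccl9 (1.34), Ccl3 (0.91), Ccl4 (0.71), Ccl7 (0.50) and Ccl2 (0.18), the reverse sign, none of it called. Ccl9 in SAM against the others (-0.31), Ccl24 in fibers against sATM (-0.88) and Ccl4 in sATM against vATM (-0.059) also changed sign there. The cause was not tested.

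For fibers against sATM, log2(RPKM + 0.1) gave 3 higher and 0 lower, voom 0 lower, and a fit on these groups alone 0 and 0. Fewer libraries enter that fit. Over all genes, voom called 5 lower in fibers against sATM, and the fit on these groups alone called 0. For ganglia against fibers, DESeq2 gave 5 lower, log2(RPKM + 0.1) 0 and the groups alone 1. Over all genes these settings called 639, 205 and 24 lower, against 194 in the main fit. Ccl24 was the 1 member lower in sATM than vATM by DESeq2, voom and without a filter. There, 33, 14 and 15 of all genes were called lower in turn, against 3 in the main fit. With fat as the only reference, an alternative added after seeing the data, 4 members were higher and 3 lower, and Ccl8 (-2.55), Ccl9 (-2.01) and Ccl24 (-0.22) changed sign; with spleen and brain only, Ccl6 did (1.60). With ganglia alone as SAM, Ccl24 lost its call (adjusted p = 0.242).

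Leaving out 1 library gave 3 to 6 higher and 0 to 3 lower for fibers against sATM, 0 to 2 lower for ganglia against fibers, 6 to 8 higher for SAM against the others and 0 to 1 lower for sATM against vATM. Signs changed with 1 library left out for uncalled values only. Between sATM and vATM the ranges were -1.81 to 1.06 for Ccl8, -1.16 to 0.51 for Ccl9, -1.36 to 0.41 for Ccl6, -0.19 to 0.42 for Ccl3 and -2.32 to 0.13 for Ccl2, with Ccl8 at -0.02 and Ccl9 at 0.17 without vATM 1. Ccl12 in ganglia against fibers ran from -1.03 to 0.15 (without fibers 2), and in spleen against microglia Ccl7 ran from -2.52 to 2.73, Ccl8 from -2.53 to 1.56 and Ccl6 from -0.44 to 0.015 (each high value without microglia 1). In voom, Ccl3 in sATM against vATM (-0.043) and Ccl7 (0.43) and Ccl8 (0.20) in spleen against microglia changed sign, as did Ccl8 in sATM against vATM with RPKM (-0.082 and -0.074).

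Same-numbered libraries deviated together in 15 of 33 pairs (r above 0.1, range -0.391 to 0.630). The highest value was that of SpM 1 with microglia 1, and the lowest that of fibers 1 with microglia 1. Differently numbered libraries were not compared in this way, so whether the numbers mark shared batches was not tested. With the replicate block, ganglia against fibers had 1 member lower (Ccl4), Ccl2 in fibers against sATM lost its call (adjusted p = 0.0548) and Ccl8 in sATM against vATM was -0.033. RLE scaling moved the median of all genes in SAM against the others from 0.02 to 0.19, and the share of calls that were higher from 62.4% to 72.3%. Ccl9 (1.04) was then called. Groups of 2 libraries and low counts in spleen and microglia limit precision for Ccl2, Ccl7, Ccl8 and Ccl12.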
